A study of Homo sapiens with 9 samples.

Results

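Metallothioneins are short cysteine-rich proteins that hold zinc, copper and cadmium in the cell. The 9 genes described here are 6 metallothionein genes (MT1E, MT1F, MT1G, MT1M, MT1X and MT2A), their zinc-sensing activator MTF1, the zinc exporter SLC30A1 and the zinc importer SLC39A10. They were taken by symbol from a list and matched to Ensembl identifiers, 9 of the 60683 gene identifiers in the count files. Gene counts came from 9 total RNA libraries of HEK293T, a widely used cell line derived from human embryonic kidney, with 3 replicates in each of 3 groups. The parental cells are those from before the reporters were put in. Clone 15 and clone 37 each grew from 1 sorted cell and carry 2 reporters placed in the genome by the piggyBac transposon. The first has 60 CAG units before Myc-tagged NanoLuc (NLuc), and the second has 0 CAG units before Myc-tagged firefly luciferase (FLuc). The labels call reporter expression high in clone 37 and low in clone 15. Each level is 1 clone, so the level of the reporter cannot be told apart from other differences between the clones. Clone 15 was read at 100 bp and the other groups at 75 bp, so for clone 15 the effect of the longer reads cannot be told apart from that of the clone. The labels do not say that replicates were separate cultures, and p-values measure only the spread between these libraries. All 3 groups were grown in the same serum-containing medium, and no zinc, cadmium or other metal treatment is labelled, so the values are resting levels.

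When zinc rises, MTF1 moves to metal response elements, short motifs upstream of metallothionein genes and of SLC30A1, and raises their transcription. SLC30A1 then carries zinc out of the cell across the plasma membrane, while SLC39A10 carries it in and is known as a gene that zinc-bound MTF1 represses. Metallothionein transcripts are also raised by glucocorticoids, and several of the MT1 genes are silenced in many cell lines.

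The libraries differed in depth and in how closely replicates matched. Gene counts summed to 10334090 to 13902872 in the parental and clone 37 libraries and to 18654063 to 38093340 in clone 15. Thus 1 count was worth 0.0719 to 0.0968 CPM, the counts scaled to a common library gene total, in the first 2 groups and 0.0263 to 0.0536 CPM in clone 15. Parental replicate 2 stood apart from its group. The chi-square per degree of freedom over genes was 11.5 and 11.6 against the other parental libraries, which gave 1.99 between themselves. Clone 15 replicate 2 stood apart less clearly within its group (9.97 and 8.19, against 4.53 between the other clone 15 libraries). The measure grows with depth, so values of the deeper clone 15 libraries cannot be compared with those of other groups. No pair matched within sampling noise. Repeated preparations of 1 culture can exceed that noise too, so the check cannot show that samples were separate. All 9 libraries were used as 3 replicates per group, as labelled. All 8 markers fixed for HEK293T cells, such as PAX2, VIM and NEFL, were above 1 CPM in every group. Their sum was 1380 to 1689 CPM in parental, 4143 to 4305 in clone 15 and 865 to 932 in clone 37. Most of that spread came from the neurofilament genes NEFM (means of 559, 2728 and 137 CPM in the same order) and NEFL (235, 716 and 60.7). VIM averaged 545, 547 and 543 CPM, PAX2 9.01, 9.77 and 8.96, and CDH2 127, 113 and 68.5. LHX1 averaged 10.6, 14.0 and 21.2 CPM, KRT18 38.2, 66.9 and 47.0, and KRT8 15.0, 17.9 and 12.1. The 5 fibroblast markers summed to 35.6 to 38.1 CPM in parental and 19.2 to 21.3 in clone 37, and to 54.9, 75.0 and 169 CPM in clone 15 replicates 1, 2 and 3. The defining fibroblast collagen COL1A2 was at 0 in parental and clone 37 and at 5.59, 12.2 and 56.8 CPM in clone 15 replicates 1, 2 and 3. The other 4 fibroblast markers were also highest in clone 15 replicate 3 among the clone 15 libraries, with COL1A1 at 48.3, 61.4 and 108 CPM, and LUM at 0.394, 0.772 and 1.45 CPM against a mean of 2.14 in parental. Blood and hepatocyte markers summed to under 1 CPM in every library. The 3 keratin and epithelial markers summed to 12.5 to 14.2 CPM in parental, 3.86 to 4.39 in clone 15 and 3.29 to 3.72 in clone 37, with KRT5 and KRT14 at 0 in all groups. The part of these marker differences in the values below was not tested. Without clone 15 replicate 3, which had the highest fibroblast sum, no member's call given below changed.

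The metallothionein genes lie in 1 cluster on chromosome 16, and their similarity bears on how well their reads can be placed. The authors' notes name the build hg38, and positions are from GENCODE 29 on the same build (GRCh38). MT2A (ENSG00000125148) spans 56608199 to 56609497, MT1E (ENSG00000169715) 56625475 to 56627112, MT1M (ENSG00000205364) 56632233 to 56633986, MT1F (ENSG00000198417) 56657694 to 56660698, MT1G (ENSG00000125144) 56666731 to 56668065 and MT1X (ENSG00000187193) 56682424 to 56684196. Each gene has 3 exons in its principal transcript. Each of the 6 coding sequences has 183 bases before the stop codon and 20 codons for cysteine, the residue that binds the metal. Between any pair of them 88.5% to 95.1% of bases were identical. The coding sequences of the 3 members with counts are shown to let the differences be seen. Capitals mark bases that differ from MT2A, 16 in MT1F and 14 in MT1X.
MT2A: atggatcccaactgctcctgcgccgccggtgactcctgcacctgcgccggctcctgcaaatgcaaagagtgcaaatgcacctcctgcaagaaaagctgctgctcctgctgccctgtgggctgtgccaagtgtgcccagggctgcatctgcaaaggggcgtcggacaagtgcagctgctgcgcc
MT1F: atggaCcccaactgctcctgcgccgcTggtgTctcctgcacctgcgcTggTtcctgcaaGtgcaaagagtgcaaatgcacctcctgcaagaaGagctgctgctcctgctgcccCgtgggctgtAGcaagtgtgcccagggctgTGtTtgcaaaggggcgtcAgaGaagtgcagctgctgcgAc
MT1X: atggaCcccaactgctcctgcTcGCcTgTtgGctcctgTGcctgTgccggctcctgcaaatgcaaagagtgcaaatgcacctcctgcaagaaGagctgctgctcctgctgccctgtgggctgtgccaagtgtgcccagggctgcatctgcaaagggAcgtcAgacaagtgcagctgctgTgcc

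The overlap with other genes was measured over whole transcripts, on both strands, at the read lengths used. No 75-base word of the principal transcript of MT2A (786 bases) or MT1F (690 bases) occurred in another annotated gene. In MT1X (450 bases) 31.6% of 75-base words and 19.1% of 100-base words did. The genes that shared them were MT1G, the pseudogene MT1XP1 on chromosome 1 and AC026461.1, a noncoding gene that overlaps MT1X on the same strand. STAR's gene counts leave out reads that map to several places or overlap several genes, so MT1X levels are uncertain, and levels in clone 15 are not strictly comparable with those from shorter reads. MT1XP1 had 0 to 5 counts per library and AC026461.1 had 0 in all 9. The share was 6.63% for MT1G, 0.794% for MT1E and 0.132% for MT1M at 75 bases. For MTF1 it was 0.418%, and for SLC30A1 and SLC39A10 it was 0%.

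MTF1 recognises a 7-base core, which was searched as TGCACNC and TGCGCNC on both strands in the 250 bases ahead of each RefSeq start (GRCh38.p14). Of 35116 promoters of that length 24.8% held at least 1 match, 1.58% at least 3 and 0.370% at least 4. Among the members, promoters were matched by symbol for MT2A, MT1X, MTF1, SLC30A1 and SLC39A10, the last with a pair of starts. MT2A held 7 matches, MT1X 4 and SLC30A1 1, and no match overlapped another. MTF1 held 0 matches, and so did both starts of SLC39A10. The 3 promoters with a match are shown 5′ to 3′ on the gene's strand, with matches in capitals. They lie at chr16:56608334-56608583 (MT2A, plus strand), chr16:56682220-56682469 (MT1X, plus strand) and chr1:211579162-211579411 (SLC30A1, minus strand).
MT2A: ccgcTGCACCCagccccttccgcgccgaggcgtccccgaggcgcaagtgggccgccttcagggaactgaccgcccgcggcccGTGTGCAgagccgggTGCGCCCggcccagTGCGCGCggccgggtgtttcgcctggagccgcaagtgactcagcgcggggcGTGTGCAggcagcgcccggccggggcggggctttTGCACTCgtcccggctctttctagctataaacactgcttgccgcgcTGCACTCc
MT1X: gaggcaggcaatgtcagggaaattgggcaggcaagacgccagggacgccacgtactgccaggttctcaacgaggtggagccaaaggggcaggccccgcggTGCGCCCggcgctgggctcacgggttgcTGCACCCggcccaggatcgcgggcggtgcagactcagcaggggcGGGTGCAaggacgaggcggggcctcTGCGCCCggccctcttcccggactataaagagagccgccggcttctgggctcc
SLC30A1: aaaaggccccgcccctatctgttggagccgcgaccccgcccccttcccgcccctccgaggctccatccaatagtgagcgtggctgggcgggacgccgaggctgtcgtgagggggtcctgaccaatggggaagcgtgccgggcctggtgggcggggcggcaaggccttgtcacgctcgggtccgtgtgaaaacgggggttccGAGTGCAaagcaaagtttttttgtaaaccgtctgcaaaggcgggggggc

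In MT1X the match nearest to the start began 53 bases ahead of it and in MT2A matches began 54 and 8 bases ahead. In SLC30A1 the match began 49 bases ahead, on the opposite strand. The RefSeq starts differ from the ends of the GENCODE spans. The windows of MT2A and SLC39A10 lie inside their spans, and that of SLC30A1 does not adjoin its span. Match counts and distances thus hold for these starts only. A match describes letters only, and MTF1 binding was not measured here. Other metallothionein genes with a promoter in the table also held matches, 3 in MT1B, 8 in MT1H and 3 in MT4. MT1B and MT1H had 0 counts in all libraries and MT4 1 count in a single parental library.

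**Figure D1:**
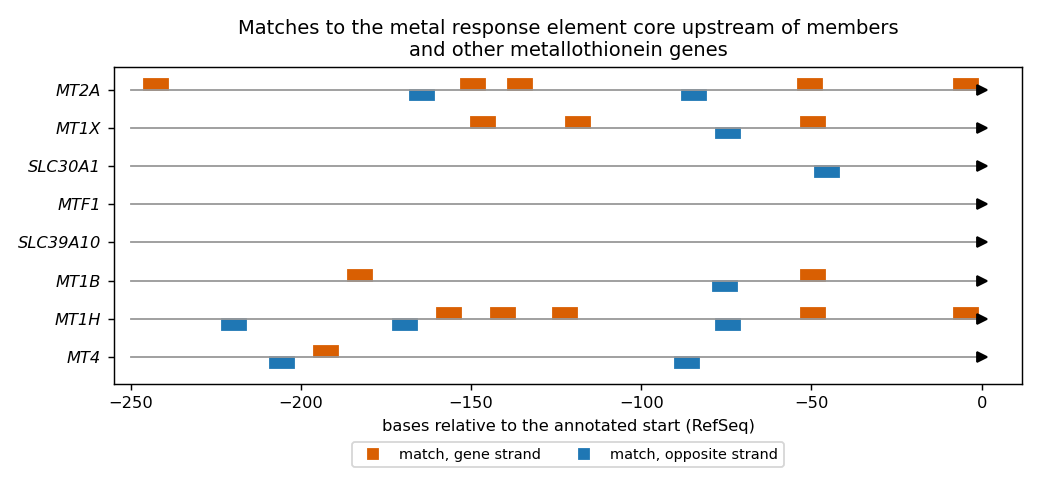
Matches to the 7-base metal response element core in the 250 bases ahead of the RefSeq start, for 5 members and 3 other metallothionein genes. Position is the distance from the start in bases. Orange boxes lie on the gene strand and blue boxes on the opposite strand. MT2A holds 7 matches, MT1X 4, SLC30A1 1, and MTF1 and SLC39A10 0.

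Only MT2A, MT1F and MT1X of the 6 metallothioneins gave more than 1 count in all. MT1G and MT1M had 0 counts in each of the 9 libraries, and MT1E had 1 count, in clone 15 replicate 3. A count of 0 allows up to 3 counts, which is 0.216 to 0.278 CPM in a parental library, 0.243 to 0.290 in clone 37 and 0.0788 to 0.161 in clone 15. Over the pooled libraries of a group the same 3 counts were 0.0794 CPM in parental, 0.0892 in clone 37 and, for MT1G and MT1M, 0.0369 in clone 15. The 1 count of MT1E in clone 15 was 0.0123 CPM, with a 95% Poisson interval up to 0.0685. These limits cover counting error only, as do the intervals below. The 3 members were not testable in any comparison. Of 11 other metallothionein genes and pseudogenes (MT1A, MT1B, MT1H, MT1L, MT1DP, MT1JP, MT1CP, MT1IP, MT1HL1, MT3 and MT4) 0 passed the filter on low counts.

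MT2A, the most widely expressed human metallothionein, was also the most abundant here. It had 77, 121 and 93 counts in parental replicates 1, 2 and 3, or 7.12, 8.70 and 7.12 CPM. In clone 15 it had 251, 219 and 161 counts, or 6.59, 8.89 and 8.63 CPM. In clone 37 the counts were 107, 91 and 118, or 9.77, 8.81 and 9.55 CPM. The lowest clone 37 library lay just above the highest parental one, and clone 15 overlapped both other groups. In bulk RNA, fewer cells with a transcript and less of it per cell cannot be told apart. The group means were 7.65 ± 0.914 CPM (SD, n = 3) for parental, 8.04 ± 1.26 for clone 15 and 9.38 ± 0.506 for clone 37, with 3 libraries in each. By edgeR's quasi-likelihood test with Benjamini-Hochberg adjustment the log2 fold change in clone 37 against parental was 0.26 (SE 0.14, adjusted p 0.132), and in clone 15 it was 0.02 (SE 0.16, adjusted p 0.926). The 95% intervals ran from -0.02 to 0.54 and from -0.30 to 0.34. Without parental replicate 2, the library that stood apart, the clone 37 difference was 0.37 and was called (adjusted p 0.0252).

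MT1F, another of the MT1 isoforms, was counted 18, 37 and 32 times in the parental replicates, 58, 54 and 32 times in those of clone 15 and 16, 16 and 17 times in those of clone 37. As CPM these were 1.67, 2.66 and 2.45 in parental replicates 1 to 3, 1.52, 2.19 and 1.72 in clone 15, and 1.46, 1.55 and 1.38 in clone 37. The clone 37 libraries lay below the lowest parental library, while clone 15 overlapped both. Pooled over libraries, MT1F stood at 2.30 CPM in parental (95% Poisson interval 1.84 to 2.84), 1.77 in clone 15 (1.49 to 2.08) and 1.46 in clone 37 (1.08 to 1.93), so the parental and clone 37 intervals overlapped. The log2 fold change in clone 37 was -0.67 (SE 0.28), with an edgeR adjusted p of 0.0525 that missed the threshold of 0.05. It was called with RLE size factors (-0.68), the filter of 1 CPM (-0.70), GC and length trends removed (-0.72), without parental replicate 1 (-0.84) and against chromosome neighbours (-0.85), with adjusted p from 0.0203 to 0.0477. In the other 11 alternatives it was not called, among them DESeq2 (-0.69, adjusted p 0.191) and the fit without parental replicate 2 (-0.54, adjusted p 0.125). In clone 15 it was -0.38 (SE 0.28, adjusted p 0.261), with a 95% interval from -0.92 to 0.16.

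MT1X was the metallothionein whose difference passed the test. Its transcripts were counted 15, 21 and 18 times in the parental replicates, 56, 31 and 19 times in those of clone 15 and 25, 28 and 42 times in those of clone 37. In CPM the parental libraries stood at 1.39, 1.51 and 1.38, those of clone 15 at 1.47, 1.26 and 1.02, and those of clone 37 at 2.28, 2.71 and 3.40. Every clone 37 library was above every library of the other groups, which overlapped each other. Pooled, MT1X stood at 1.43 CPM in parental (95% Poisson interval 1.07 to 1.87), 1.30 in clone 15 (1.07 to 1.58) and 2.82 in clone 37 (2.28 to 3.45). Against parental it rose 1.93-fold in clone 37, or 0.95 on the log2 scale (SE 0.27, edgeR adjusted p 0.00628). The highest library carried part of this: without clone 37 replicate 3 the value was 0.74 and the call was lost (adjusted p 0.0616). Against clone 15 the log2 fold change was 1.14 (SE 0.26, adjusted p 0.000518), and without clone 37 replicate 3 it was 0.96 and still called (adjusted p 0.0148). Set against chromosome neighbours it was 0.56 and the call was lost (adjusted p 0.0727). Clone 15 and parental differed by -0.20 (SE 0.31, adjusted p 0.622), with a 95% interval from -0.81 to 0.41.

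**Figure D2:**
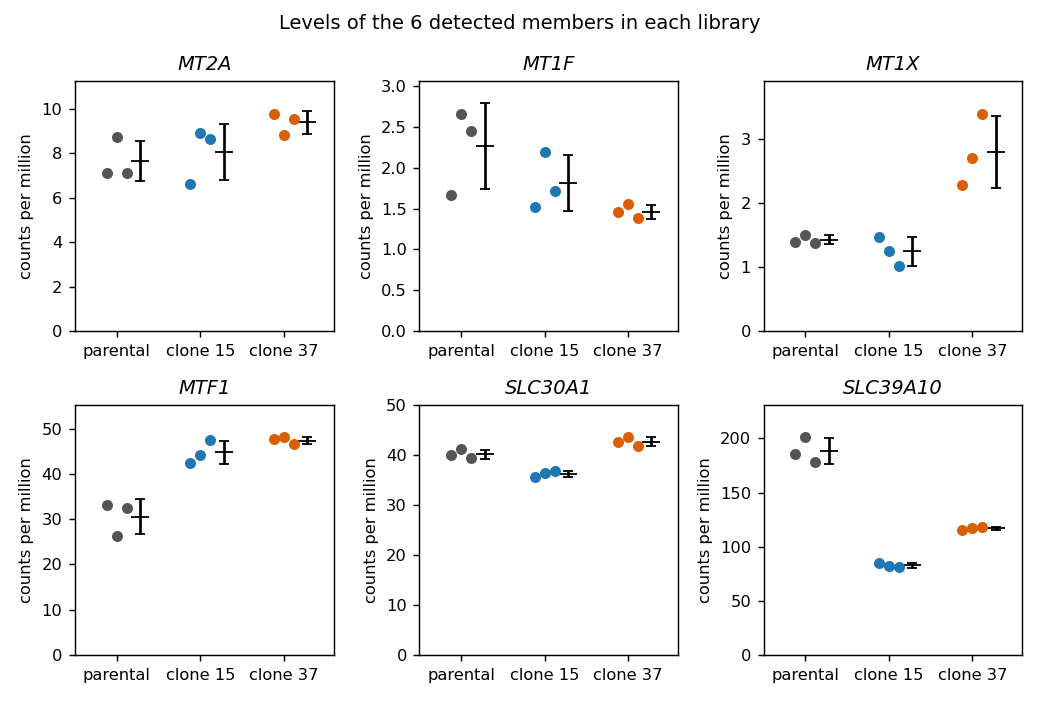
Level in CPM of the 6 members with counts, in each of 9 libraries (points, replicates 1 to 3 from left to right) with the group mean and SD (black, n = 3), on linear axes from 0. MT1X is highest in the clone 37 libraries, MTF1 is higher in both clones than in parental, and SLC39A10 is 188 CPM on average in parental against 82.7 in clone 15 and 117 in clone 37.

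In clone 37 the shares of MT1F and MT1X among metallothionein counts lay outside the range of the other groups. Summed over the 6 genes, the level was 10.2, 12.9 and 10.9 CPM in parental replicates 1 to 3, 9.58, 12.3 and 11.4 in clone 15, and 13.5, 13.1 and 14.3 in clone 37. All 3 clone 37 libraries were above the other 6, the lowest of them only just. MT2A gave 65.0% to 70.0% of these counts in parental, 68.8% to 75.6% in clone 15 and 66.7% to 72.3% in clone 37. MT1F gave 16.4% to 22.4% in parental, 15.0% to 17.8% in clone 15 and 9.60% to 11.9% in clone 37. MT1X gave 11.7% to 13.6% in parental, 8.92% to 15.3% in clone 15 and 16.9% to 23.7% in clone 37. In clone 37 MT1X had more counts than MT1F in every library. In parental and clone 15 MT1F had more, though by 58 to 56 in clone 15 replicate 1, where the intervals of the 2 shares nearly coincide. The transcripts differ in length, and per kilobase of the principal transcript MT1X and MT1F overlapped in those groups. With 110 to 365 counts behind each total, the 95% Wilson interval of a share was wide, for example 11.7% to 23.7% for MT1X in clone 37 replicate 1. These shares do not depend on the scaling of the libraries, and no test was made over the members.

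**Figure D3:**
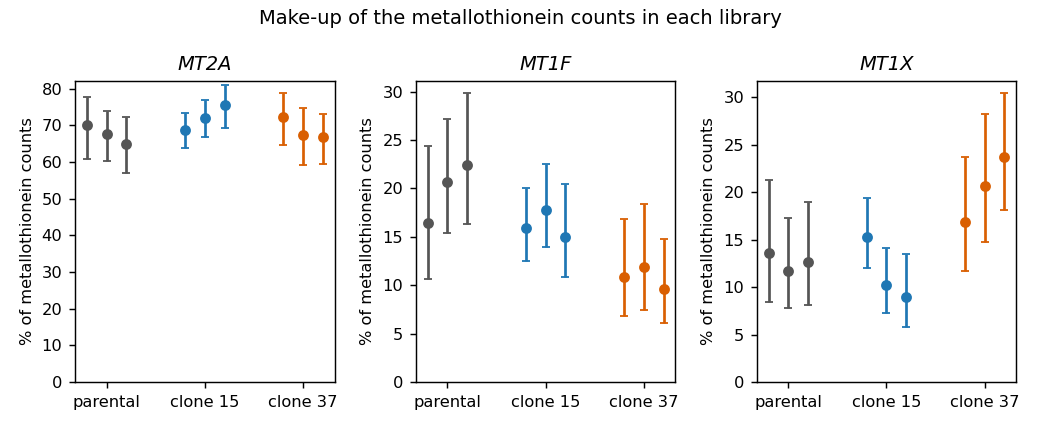
Share of the summed metallothionein counts given by MT2A, MT1F and MT1X in each library (points, percent) with 95% Wilson intervals for counting error. The MT1X share is 16.9% to 23.7% in clone 37 and at most 15.3% in the other groups, and the MT1F share is 9.60% to 11.9% in clone 37 and at least 15.0% elsewhere.

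MTF1 (ENSG00000188786, chromosome 1, 37809567 to 37859620), the transcription factor that senses zinc, was higher in both clones than in parental cells. It stood at 33.2, 26.2 and 32.5 CPM in parental replicates 1 to 3, 42.4, 44.3 and 47.5 in clone 15, and 47.7, 48.1 and 46.6 in clone 37. Neither clone overlapped parental, and the clones overlapped each other. Clone 37 had a 1.53-fold rise, or 0.61 on the log2 scale (SE 0.08, edgeR adjusted p 8.02e-06). Clone 15 had a 1.44-fold rise, or 0.52 (SE 0.10, adjusted p 5.89e-05). Between the clones the difference was 0.09, with a 95% interval from -0.05 to 0.23 (adjusted p 0.268). With GC and length trends removed that difference was 0.14 and called (adjusted p 0.0486). The lowest parental library was replicate 2, and without it the log2 fold changes were 0.50 in clone 37 and 0.44 in clone 15, both still called.

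SLC30A1 (ENSG00000170385, chromosome 1, 211571568 to 211578742) is the exporter that zinc induces through MTF1. Its levels were 39.9, 41.1 and 39.4 CPM in parental replicates 1 to 3, 35.6, 36.3 and 36.8 in clone 15, and 42.6, 43.5 and 41.7 in clone 37. The libraries of the 3 groups did not overlap in CPM, yet the steps were small. Against parental neither clone was called, with log2 fold changes of 0.06 for clone 37 (SE 0.07, adjusted p 0.486) and -0.18 for clone 15 (SE 0.09, adjusted p 0.0946). Between the clones SLC30A1 was 1.18-fold higher in clone 37, or 0.24 on the log2 scale (SE 0.07, edgeR adjusted p 0.00495). That call was lost, with a value of 0.06 (adjusted p 0.442), once trends in GC content and transcript length were removed. Read length differs between these clones.

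SLC39A10 (ENSG00000196950, chromosome 2, 195575977 to 195737702) imports zinc, and it had the largest differences of the 6 tested members in both comparisons with parental other than that of MT1X in clone 37. It stood at 186, 201 and 178 CPM in parental replicates 1 to 3, 84.8, 82.2 and 80.9 in clone 15, and 115, 117 and 118 in clone 37. The 3 groups were far apart, with the clone that expresses less reporter lowest. SLC39A10 fell by 1.22 on the log2 scale in clone 15 (SE 0.08, edgeR adjusted p 9.24e-12), a 2.33-fold decrease. In clone 37 it fell by 0.72 (SE 0.06, adjusted p 4.09e-08), a 1.64-fold decrease. Clone 37 was above clone 15 by 0.50 (SE 0.06, adjusted p 1.61e-08). The 3 calls held in all 16 alternative fits of each comparison. With GC and length trends removed the values were smaller, at -0.92 for clone 15, -0.61 for clone 37 and 0.31 between the clones. Against chromosome neighbours the values from parental were smaller still, at -0.71 for clone 15 and -0.33 for clone 37.

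The members' calls are set here beside the share called among all genes. In clone 37 against parental, 54.0% of 16501 tested genes were called (26.7% higher, 27.3% lower), and 3 of the 6 tested members were, MT1X and MTF1 higher and SLC39A10 lower. In clone 15 against parental, 51.4% of 17703 genes were called (25.1% higher, 26.2% lower), and 2 of the 6 members were, MTF1 higher and SLC39A10 lower. Between the clones, 57.7% of 17712 genes were called (28.7% higher, 29.0% lower in clone 37), and 3 members were, MT1X, SLC30A1 and SLC39A10, all higher in clone 37. The groups did not overlap in CPM for 6 of the 6 members in clone 37 against parental, beside 61.7% of all genes. The number was 3 of 6 in clone 15 against parental, beside 59.5%, and 3 of 6 between the clones, beside 63.5%. Over the tested members the median difference was, on the log2 scale, 0.16, -0.19 and 0.24 in these comparisons, and that of all genes 0.02, 0.02 and -0.00. The first 2 comparisons share the parental libraries, and the members tested passed a filter on low counts that MT1E, MT1G and MT1M did not.

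**Figure D4:**
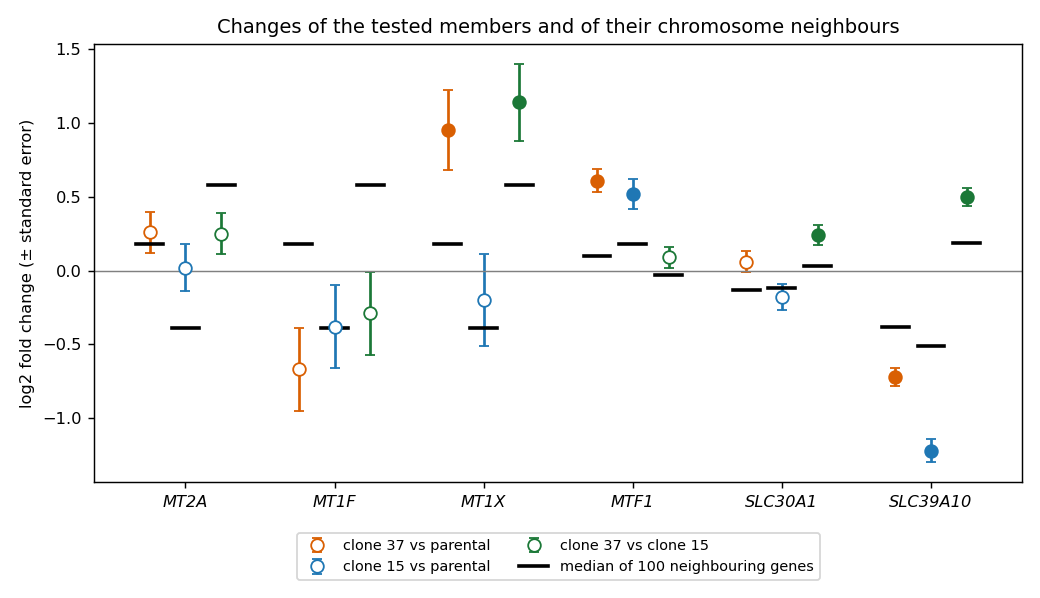
Fitted log2 fold changes (points, ± standard error) of the 6 tested members in the 3 comparisons, filled where called, with the median log2 fold change of the 100 nearest tested genes on the same chromosome (black bars). MT1X (1.14) and SLC39A10 (0.50) are farthest from 0 between the clones, SLC39A10 (-1.22) in clone 15, and the neighbours of the metallothioneins are at -0.39 in clone 15 and 0.58 between the clones.

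Levels were also set per kilobase of the principal transcript, a rough scale for different genes. Counts take in reads on any annotated exon of a gene. The longest annotated transcripts of MT1X, MT1F and MT2A have 1727, 1573 and 903 bases, more than the 450, 690 and 786 used. The order between genes therefore depends on the length chosen. The value of MT1X is uncertain on this scale, since reads in the stretches it shares with other genes may not be counted and its full transcript length was used. In parental cells SLC39A10 came first at 35.4 ± 2.25 CPM per kb, then MT2A at 9.73 ± 1.16, SLC30A1 at 7.33 ± 0.156, MTF1 at 3.84 ± 0.484, MT1F at 3.27 ± 0.760 and MT1X at 3.17 ± 0.164 (SD, n = 3 each). The library ranges of MTF1 (3.28 to 4.17), MT1F (2.41 to 3.86) and MT1X (3.06 to 3.36) overlapped, so their order is not resolved. In clone 37 SLC39A10 (22.0 ± 0.308) and MT2A (11.9 ± 0.644) again led, and MT1X at 6.22 ± 1.25 exceeded MT1F at 2.12 ± 0.125. In clone 15 MT1X stood at 2.78 (2.26 to 3.27 over libraries) and MT1F at 2.62 (2.21 to 3.18), with overlapping ranges.

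Genes on either side of the metallothionein cluster on chromosome 16 also differed between the groups. From MT4 to MT1X the cluster spans 56565049 to 56684196. Of 12 other protein-coding genes within 500 kb, 10 were tested. In clone 15 against parental 7 of these were called lower and 1 higher, beside 26.2% and 25.1% of all genes, with a median log2 fold change of -0.57. BBS2, a gene of cilia, fell by 0.99 (SE 0.09, edgeR adjusted p 2.31e-09), and CPNE2, a copine, fell by 0.91 (SE 0.11, adjusted p 1.06e-07). HERPUD1, a gene of protein degradation at the endoplasmic reticulum, fell by 1.10 (SE 0.09, adjusted p 1.46e-10). The 3 tested metallothioneins inside this stretch had clone 15 values of 0.02 (MT2A), -0.20 (MT1X) and -0.38 (MT1F), none of them called. Against the median of the 100 nearest genes, which was -0.39, MT2A was 0.41 and called (adjusted p 0.0445), while MT1X (0.19) and MT1F (0.01) were not. That test takes the median as a fixed value and leaves out how much the neighbours vary. A call in it therefore does not show that a gene departs from its region. In the same setting HERPUD1 was -0.72, BBS2 -0.61 and CPNE2 -0.52, all still called.

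In clone 37 against parental the same 10 neighbours had a median of 0.14, with 4 called higher and 2 lower, beside 26.7% and 27.3% of all genes. NLRC5, a regulator of antigen presentation genes, rose by 1.36 (SE 0.18, adjusted p 4.66e-06), and HERPUD1 fell by 0.86 (SE 0.07, adjusted p 1.52e-08). GNAO1, a G protein subunit, fell by 0.58 (SE 0.20, adjusted p 0.0219), a call that was lost without clone 37 replicate 2 or 3 or parental replicate 3, and with DESeq2. Between the clones 9 of the 10 were called higher in clone 37 and 0 lower, beside 28.7% and 29.0% of all genes, with a median of 0.55. The largest were CPNE2 (1.09, SE 0.09), the RNA processing factor NUDT21 (0.91, SE 0.05) and BBS2 (0.85, SE 0.07). Against the median of the 100 nearest genes, which was 0.58, the MT1X difference between the clones shrank from 1.14 to 0.56 and lost its call (adjusted p 0.0727). MT2A turned from 0.25 to -0.33 (adjusted p 0.0482), and MT1F went from -0.29 (adjusted p 0.378) to -0.87, which was called (adjusted p 0.01). CPNE2 (0.52), NUDT21 (0.33) and BBS2 (0.28) were smaller there and still called. The rise of MT1X over parental in clone 37, where that median was 0.18, was 0.77 in that setting and still called (adjusted p 0.0285).

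SLC39A10 also lay among genes that were lower in the clones. The 100 nearest tested genes on chromosome 2 had a median log2 fold change of -0.38 in clone 37 and -0.51 in clone 15. Against them SLC39A10 was still called lower, at -0.33 in clone 37 and -0.71 in clone 15, and between the clones it was 0.31 and called. The protein-coding genes whose centred log2(CPM + 0.5) over the 9 libraries was nearest to that of SLC39A10 were SEPTIN10, LANCL1 and FAM171B. Their root mean square differences were 0.057, 0.068 and 0.069, against a median of 0.53 over 11311 genes. All 3 lie on chromosome 2, which held 6.71% of the genes compared. SEPTIN10, a septin, went from 106 CPM in parental to 48.7 in clone 15 and 64.3 in clone 37.

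For the neighbourhood of MTF1 the median was 0.10 in clone 37 and 0.18 in clone 15, and MTF1 was still called against it, at 0.51 and 0.35. Nearest in pattern to MTF1 were ZNF346, NXF1 and KRI1 (0.038, 0.045 and 0.051), on chromosomes 5, 11 and 19. For SLC30A1 they were GPR107, XPO7 and STAT5B (0.033, 0.035 and 0.035), on chromosomes 9, 8 and 17. For MT2A they were CIAO2B and GFER on chromosome 16 and PDAP1 on chromosome 7 (0.059, 0.072 and 0.074).

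The other zinc transporters move zinc out of the cytosol (SLC30) or into it (SLC39). Of 9 further SLC30 genes 7 were tested. In clone 15, 6 of the 7 were called lower and 0 higher, with a median of -0.24, where 26.2% of all genes were lower. SLC30A6, which works at the Golgi, fell by 0.67 (SE 0.09, edgeR adjusted p 4.91e-07), SLC30A3, known for loading synaptic vesicles, by 0.63 (SE 0.15, adjusted p 0.000818) and SLC30A4 by 0.37 (SE 0.10, adjusted p 0.00493). SLC30A4 lost that call with GC and length trends removed (-0.12) and SLC30A3 against its chromosome neighbours (-0.29), where SLC30A6 was -0.32 and still called. With the trends removed SLC30A6 was -0.38 and called. In clone 37, 4 were called lower and 1 higher, beside 27.3% and 26.7% of all genes, with a median of -0.39. There SLC30A3 fell by 0.69 (SE 0.16), SLC30A10 by 0.49 (SE 0.17) and SLC30A4 by 0.40 (SE 0.09), the first not called against its neighbours (-0.35). SLC30A10, a manganese exporter by its known role, had 4.76 CPM in clone 37 on average and lost the call with DESeq2, against its neighbours, and on leaving out clone 37 replicate 1 or 2 or the first parental one. SLC30A7, another Golgi transporter, was 0.45 higher in clone 37 than in clone 15 (SE 0.06, adjusted p 4.01e-07), and 0.23 higher with the trends removed, still called. It was higher than parental in clone 37 (0.21, SE 0.06) and lower in clone 15 (-0.24, SE 0.08).

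Of 13 further SLC39 genes 10 were tested, and they moved both ways. In clone 37, 2 were called higher and 3 lower (median -0.02), and in clone 15, 3 higher and 2 lower (median 0.10). These counts of 5 of 10 are near the 54.0% and 51.4% called among all genes. SLC39A6, the closest relative of SLC39A10 and its partner in zinc uptake, fell by 1.12 in clone 37 (SE 0.06, edgeR adjusted p 1.52e-10) and by 0.41 in clone 15 (SE 0.08, adjusted p 0.000184). The order of the clones was thus opposite to that of SLC39A10, and the SLC39A6 difference between the clones was -0.71 (SE 0.06, adjusted p 3.21e-11). Against its chromosome neighbours that last value turned to 0.15, and the fall from parental in clone 37 was -0.39 and still called. SLC39A9, a Golgi zinc transporter, fell by 0.77 in clone 37 (SE 0.06, adjusted p 6.22e-09) and was -0.36 against its neighbours, still called. SLC39A4, the intestinal importer, rose there by 0.41 (SE 0.11, adjusted p 0.00538), a call that was lost without parental replicate 3 (0.28) and against its neighbours (0.27). In clone 15 the largest were SLC39A1 (1.12, SE 0.26), SLC39A3 (0.43, SE 0.13) and SLC39A13 (0.42, SE 0.10), all higher. SLC39A1 had 1.56 CPM in parental and 3.46 in clone 15 on average, and 71.0% of its 75-base words lie in an overlapping gene on the same strand, so its counts are uncertain. SLC39A3 lost its call without parental replicate 1 (0.32) and with GC and length trends removed (0.26). Against their neighbours neither SLC39A3 (0.18) nor SLC39A13 (0.17) was called.

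**Figure D5:**
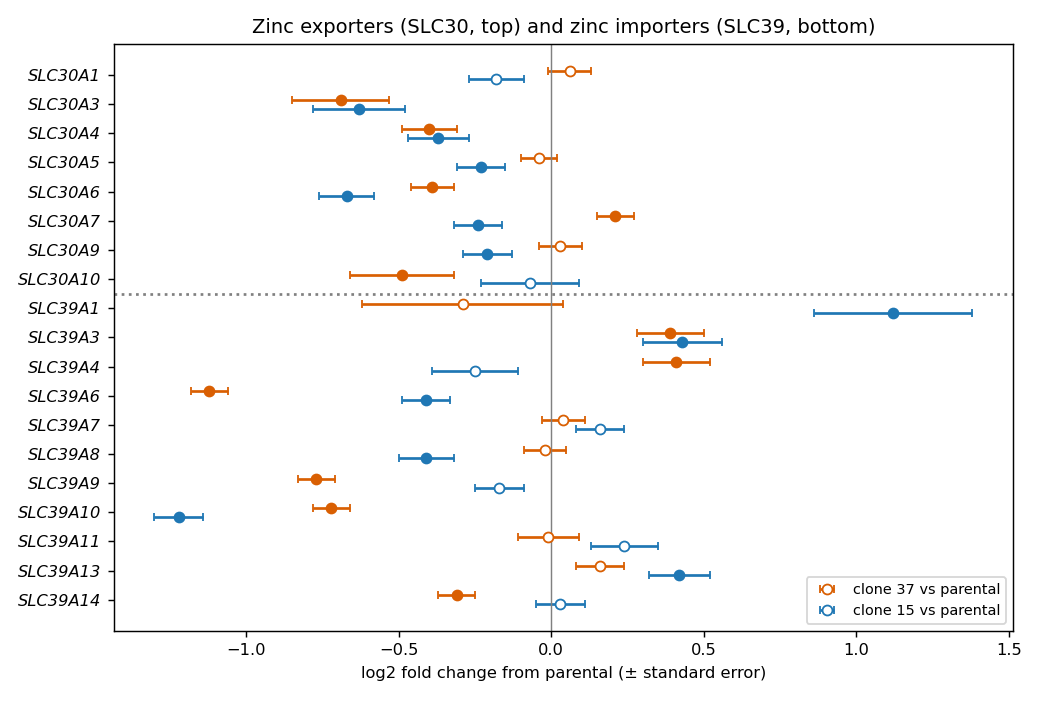
Fitted log2 fold changes from parental (points, ± standard error) of the tested zinc exporters and zinc importers in clone 37 (orange) and clone 15 (blue), filled where called. SLC39A10 is lowest in clone 15 at -1.22 and SLC39A6 is lowest in clone 37 at -1.12.

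Genes of copper handling, oxidative and metal stress and the glucocorticoid response were counted beside the members because the same signals can reach metallothioneins. Clone 37 had 2 of the 8 copper genes higher and 2 lower than parental, and clone 15 had 3 higher and 1 lower. The background for this list and for the stress and glucocorticoid lists is 26.7% of all genes higher and 27.3% lower for clone 37, and 25.1% and 26.2% for clone 15. SLC31A2, a low-affinity copper transporter, rose by 0.53 in clone 15 (SE 0.17, adjusted p 0.0107) and by 0.44 in clone 37 (SE 0.17, adjusted p 0.0405), from 4.83 CPM in parental on average. Of its 75-base words 83.9% lie in FKBP15 on the opposite strand, so its level rests on the strand that reads were assigned to. Its call was lost without parental replicate 1 in both clones (0.43 and 0.35), with unstranded counts in both, and in clone 37 also without parental replicate 3 (0.46), clone 37 replicate 1 (0.37) or 3 (0.36), with DESeq2 (0.42), no filter (0.43), a replicate block (0.43) and against its neighbours (0.36). SOD1, the copper-zinc superoxide dismutase, was the other copper gene called higher in clone 37 (0.20, SE 0.07, adjusted p 0.0249), named after its value was seen. The copper pump ATP7B rose by 0.30 in clone 15 (SE 0.08, adjusted p 0.00442) and was 0.53 against its neighbours. The copper pump ATP7A fell by 0.27 in each clone (SE 0.07 in clone 37 and 0.09 in clone 15), a call lost in clone 37 with GC and length trends removed (-0.13). CCS, the copper chaperone of SOD1, rose by 0.45 in clone 15 (SE 0.11, adjusted p 0.000899) and was 0.08 against its chromosome neighbours and 0.27 with GC and length trends removed, called only in the second. COX17, a mitochondrial copper chaperone, fell by 0.36 in clone 37 (SE 0.09) and was -0.03 against its neighbours. Clone 37 had 3 of the 4 stress genes higher and 0 lower, while clone 15 had 2 higher and 1 lower. SRXN1, 1 of the 3, had only 0.512 CPM in parental and 1.14 in clone 37 on average, shares 84.6% of its 75-base words with an overlapping gene, and lost its call with DESeq2 and without any clone 37 replicate. TXNRD1, a thioredoxin reductase, rose by 0.32 in clone 37 (SE 0.07) and by 0.35 in clone 15 (SE 0.09), and against its neighbours it was not called in clone 37 (0.13). GCLM, a subunit of the enzyme that starts glutathione synthesis, fell by 0.46 in clone 15 (SE 0.09), a call lost with GC and length trends removed (-0.16) and against its neighbours (-0.00). HMOX1, a heme oxygenase that metals induce, rose by 0.86 in clone 15 (SE 0.12, adjusted p 1.78e-06) and by 0.57 relative to parental in clone 37 (SE 0.11, adjusted p 0.000292). Of the 5 glucocorticoid genes clone 37 had 0 higher and 3 lower, against 1 higher and 2 lower for clone 15. TSC22D3, a glucocorticoid-induced leucine zipper gene, fell by 0.71 in clone 37 (SE 0.07) and 0.56 in clone 15 (SE 0.09). Against its neighbours it was -0.21 in clone 37 (adjusted p 0.0166) and -0.38 in clone 15. KLF9 fell by 0.58 (SE 0.06) and 0.79 (SE 0.08), and the receptor gene NR3C1 fell by 0.30 in clone 37 (SE 0.06), or -0.18 with GC and length trends removed, still called. PER1, a clock gene that glucocorticoids induce, rose by 0.37 in clone 15 (SE 0.09) and was 0.01 against its neighbours, where its call was lost.

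In the direct comparison of the clones, the further zinc exporters and importers had medians of opposite sign, a contrast that was not tested. The background for all counts between the clones is 28.7% of genes higher and 29.0% lower. Clone 37 was higher than clone 15 in 4 of the 7 further exporters and lower in 1, with a median log2 difference of 0.20. SLC30A6 was 0.27 higher (SE 0.07, edgeR adjusted p 0.0022), a call lost with GC and length trends removed (0.09). SLC30A10 was lower, at -0.42 (SE 0.16, adjusted p 0.0236), a call lost with DESeq2 and without clone 15 replicate 1 (-0.37), clone 37 replicate 1 (-0.36) or 2 (-0.39). Clone 37 was higher in 2 of the 10 further importers and lower in 6, with a median of -0.25. SLC39A4 was 0.65 higher (SE 0.11, adjusted p 1.54e-05) and 0.26 against its neighbours (adjusted p 0.0494), and SLC39A1 was lower, at -1.41 (SE 0.26, adjusted p 3.35e-05). No copper gene was called higher in clone 37 and 4 of the 8 were called lower, with COX17 at -0.48, CCS at -0.44 and ATOX1, the copper chaperone of the copper pumps, at -0.31. Against their chromosome neighbours none of these 3 copper genes was called (-0.09, -0.22 and -0.13). HMOX1 was lower in clone 37, at -0.29 (SE 0.09), a call lost with GC and length trends removed (-0.08), against its neighbours (-0.10) and without clone 37 replicate 1 (-0.26). GCLM was 0.39 higher in clone 37 (SE 0.08, adjusted p 6.7e-05) and 0.20 both against its neighbours and with GC and length trends removed, still called. Of the 5 glucocorticoid genes 2 were called higher in clone 37, FKBP5 (0.31) and KLF9 (0.21), and 3 lower, PER1 (-0.27), NR3C1 (-0.17) and TSC22D3 (-0.14). PER1 lost its call against its neighbours (-0.13).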

How the data were processed

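Each library came as the authors' own deposited table of raw read counts by Ensembl gene, headed by 4 lines of mapping totals. The submitters' processing notes name STAR 2.7.10a, FastQC 0.11.9 and the build hg38. The annotation release, trimming and filters are not given in the sources used here. Per the labels' protocols, total RNA was depleted of ribosomal RNA and made into directional libraries from 500 ng with 13 cycles of amplification. Column 4, the transcript strand, was used, since it held 92.6% to 94.0% of stranded gene counts. The mapping totals stayed out of library sizes. They held 19.2% to 34.6% of read pairs as outside annotated exons, 4.59% to 14.0% as multimapping, 3.76% to 4.40% as ambiguous and 1.24% to 5.16% as unmapped. Of 60683 identifiers, 60370 had a symbol in the table used and 58496 matched GENCODE 29.

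Genes were filtered with filterByExpr, scaled by TMM and tested with edgeR 4.0.16 (robust glmQLFit, glmQLFTest) in R 4.3.3, on the 6 libraries of each comparison. P-values were adjusted by Benjamini-Hochberg over all genes tested, with calls at 0.05. The standard error is the log2 fold change over the root of F, and 95% intervals were taken from it by the normal distribution. CPM is the count scaled to the library's gene total. Members and lists were chosen with earlier results of these data known. Other genes are named as the 3 called genes with the largest change per list and comparison, and, for members of at least 5 CPM, the 3 protein-coding genes nearest in pattern. Alternatives were RLE factors, DESeq2 1.42.0, other filters, unstranded counts, all 9 libraries in a fit, a replicate block, thinning, removal of GC content and transcript length trends, a test against the 100 nearest genes and leaving out each replicate. In the test against the 100 nearest genes their median was taken as known, so its p-values leave out the spread between neighbours. Python 3.11.15, pandas 2.3.3, scipy 1.17.1 and matplotlib 3.10.9 served the rest.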

Additional observations from a re-analysis of the deposited data

Results flagged for a closer look

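In 3 members the change from parental differed between the clones by the direct test of clone 37 against clone 15. MT1X had log2 fold changes of 0.95 in clone 37 and -0.20 in clone 15, and the difference was 1.14. SLC39A10 had -0.72 and -1.22, a difference of 0.50. SLC30A1 had 0.06 and -0.18, a difference of 0.24, although neither clone was called against parental. Of the 3, only the SLC39A10 difference was called in all 16 alternative fits. MT1X lost its call against chromosome neighbours (0.56) and SLC30A1 with GC and length trends removed (0.06). Groups of 3 libraries were too small for a check of single outlying values.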

How the results depend on the processing

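Of the 96 alternative values of the 6 tested members in clone 37 against parental, 88 kept their direction and side of the threshold, or stayed uncalled. For clone 15 against parental it was 94 of 96, and between the clones 90 of 96. The number of members called in clone 37 against parental went from 3 to 5 against chromosome neighbours, where MT1F (-0.85) and SLC30A1 (0.19) were also called. In the same setting the difference between the clones turned in MT2A (-0.33, adjusted p 0.0482) and SLC39A6 (0.15, adjusted p 0.0325). With GC and length trends removed, MT1F was called in clone 15 (-0.66) and MT2A (0.50) and MTF1 (0.14) between the clones. Against neighbours MT2A was also called in clone 15 (0.41) and MT1F between the clones (-0.87). Leaving out 1 library gave 2 to 4 called members against parental for clone 37, 2 for clone 15, and 3 when the clones were compared. With no filter on low counts the median log2 fold change of all genes was 0.14 in clone 15 and -0.12 between the clones. Replicate numbers did not pair the samples: deviations of equal-numbered libraries correlated at -0.162 to 0.0228 in 9 pairs, and 1 of 9 libraries matched its own number best. With a replicate block 3, 2 and 3 members and 8375, 8708 and 10490 genes were called in the 3 comparisons. MT1F and MT1X had 15 to 58 counts per library, which limits their precision, and thinning to the smallest library changed no metallothionein call.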
